A study of Mus musculus with 9 samples.

Results

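The regions described here are 675 of the 5238 merged KLF9-bound regions of the mouse heart, namely those whose average ChIP signal in the sham library was at least 1.5 times that in the library made after transaortic constriction (TAC). KLF9 belongs to the Krüppel-like transcription factors, which use zinc fingers to bind GC-rich promoter elements, and its gene is a well-known target of the glucocorticoid receptor. TAC narrows the aorta and loads the left ventricle with pressure, to which the ventricle responds by hypertrophy, a return of fetal genes and a lower use of fatty acids. Myosin genes of the heart carry small RNAs in their introns, among them miR-499 in Myh7b and miR-208b in Myh7, which act on slow-fibre and stress programs of cardiac muscle.

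Chromatin was precipitated with a KLF9 antibody from hearts of mice aged 12 to 14 weeks, 2 weeks after TAC or after a sham operation, with 1 library per condition and an input pooled from both. The labels name no other genotype for these mice. RNA came from Klf9KI hearts, which carry the alphaMHC-Cre driver of cardiomyocytes and a Klf9 knock-in transgene, and from Wt-Cre hearts, which carry the same driver alone, each at 1, 4 and 8 weeks of age with 3 hearts per group. RNA of operated mice was not analysed here, so the RNA values below compare genotypes and not TAC with sham. The members were chosen by the ratio of average signal between the ChIP libraries, so every value of TAC and sham signal is a description of 1 library each, with no replicate error and no test.

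The sequences that follow lie at regions the account returns to. The first 2 are mature miRNAs encoded at members, with the seed, bases 2 to 8, in capitals, from RefSeq on GRCm38.p6, the same build as the mm10 coordinates of the regions.
mmu-miR-499-5p: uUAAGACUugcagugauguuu
mmu-miR-208b-3p: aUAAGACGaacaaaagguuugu
The 2 miRNAs share bases 2 to 7, UAAGAC, and differ at the last base of the seed. The miR-499-5p sequence (chr2:155622893-155622913, plus strand) lies inside its member region, and miR-208b-3p (chr14:54975710-54975731, minus strand) lies outside the member assigned to its gene.

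Next come 5 promoters, each trimmed to the part of the RefSeq window from 250 bases before to 50 after a gene start that a member covers, written on the gene's strand. Capitals mark the GC box GGGCGG and the CACCC-type elements CCACGCCC and CCACACCC, on either strand. They were chosen because the members there include Klf9's own promoter, one of the largest falls in signal (Plk2, a polo-like kinase) and genes whose RNA is described below (Hdac11, a histone deacetylase, Aldh6a1, an enzyme of valine breakdown, and Sdhb, the iron-sulphur subunit of succinate dehydrogenase).
Klf9, chr19:23140976-23141167, plus strand: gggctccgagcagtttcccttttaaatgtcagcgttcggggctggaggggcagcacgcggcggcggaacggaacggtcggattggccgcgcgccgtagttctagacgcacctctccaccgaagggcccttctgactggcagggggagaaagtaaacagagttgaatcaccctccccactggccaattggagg
Hdac11, chr6:91156588-91156820, plus strand: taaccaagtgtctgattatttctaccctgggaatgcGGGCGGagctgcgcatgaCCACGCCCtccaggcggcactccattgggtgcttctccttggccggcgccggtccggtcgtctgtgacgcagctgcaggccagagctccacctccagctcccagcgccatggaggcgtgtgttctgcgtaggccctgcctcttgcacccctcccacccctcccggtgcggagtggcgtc
Plk2, chr13:110394907-110395093, plus strand: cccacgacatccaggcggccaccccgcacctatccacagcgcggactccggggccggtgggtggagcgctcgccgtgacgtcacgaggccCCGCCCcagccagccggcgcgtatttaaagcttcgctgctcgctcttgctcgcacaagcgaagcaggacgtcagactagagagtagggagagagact
Aldh6a1, chr12:84450975-84451274, minus strand: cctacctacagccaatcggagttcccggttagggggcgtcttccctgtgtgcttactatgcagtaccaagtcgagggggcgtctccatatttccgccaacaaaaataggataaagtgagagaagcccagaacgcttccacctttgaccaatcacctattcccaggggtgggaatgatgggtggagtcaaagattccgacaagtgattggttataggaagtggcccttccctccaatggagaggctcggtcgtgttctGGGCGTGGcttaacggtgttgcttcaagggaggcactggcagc
Sdhb, chr4:140961037-140961320, plus strand: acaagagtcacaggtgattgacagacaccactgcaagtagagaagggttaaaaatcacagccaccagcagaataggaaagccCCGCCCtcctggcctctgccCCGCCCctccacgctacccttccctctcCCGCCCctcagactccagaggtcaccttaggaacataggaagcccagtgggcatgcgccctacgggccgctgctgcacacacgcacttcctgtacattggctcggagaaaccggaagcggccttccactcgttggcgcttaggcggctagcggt
Sdhb held 3 GC boxes, Plk2 held 1, Hdac11 held 1 GC box and 1 CCACGCCC, Aldh6a1 held 1 CCACGCCC, and the stretch at Klf9 held none of the 3 motifs.

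Over all member promoters the same letters were common. A member covered at least 100 bases of 366 RefSeq promoter windows, and other regions that passed the ratio in neither direction covered 2895. GGGCGG stood in 78.7% of the windows at members, against 84.2% at those other regions and 35.6% of all 32817 promoter windows of the genome. CCACGCCC stood in 18.6% of the windows at members, against 26.1% at the other regions and 5.33% of all windows, and CCACACCC in 4.64%, against 7.22% and 3.56%. The order was turned round for CCACGCCC among weak regions: in the weakest 3 deciles by mean signal of both libraries the share was 14.4% of 215 windows at members and 11.9% of 520 at other regions. In the same windows GGGCGG stood in 83.3% at members and 84.6% at other regions, and CCACACCC in 2.79% and 5.38%. Median GC content was 63.3% at members and 65.3% at the other regions. A match here describes letters in a window and is not a binding site.

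Most members were promoters, and their signal was low mainly in the TAC library, as the ratio that chose them implies. Their average signal, in the deposited units, had a median of 13.2 in the TAC library and 23.1 in the sham library, while all 5238 regions had a median of 23.2 after TAC and 24.6 in sham. The median ratio of TAC to sham was 0.582 among members and 0.921 over all regions, a shift of −0.12 on the log2 scale that the deposited values carry as a whole. How the authors scaled the libraries to each other is not given in the sources used here. All 675 members were called present in the sham library, and 123 of them also in the TAC library. The other 552 members, 81.8%, were called in sham alone. The 295 regions past the same ratio in the other direction were the mirror of this. All 295 were called after TAC and 242, 82.0%, after TAC alone, with median signals of 23.7 after TAC and 13.6 in sham. These calls and medians thus follow the ratio that chose the regions.

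**Figure D1:**
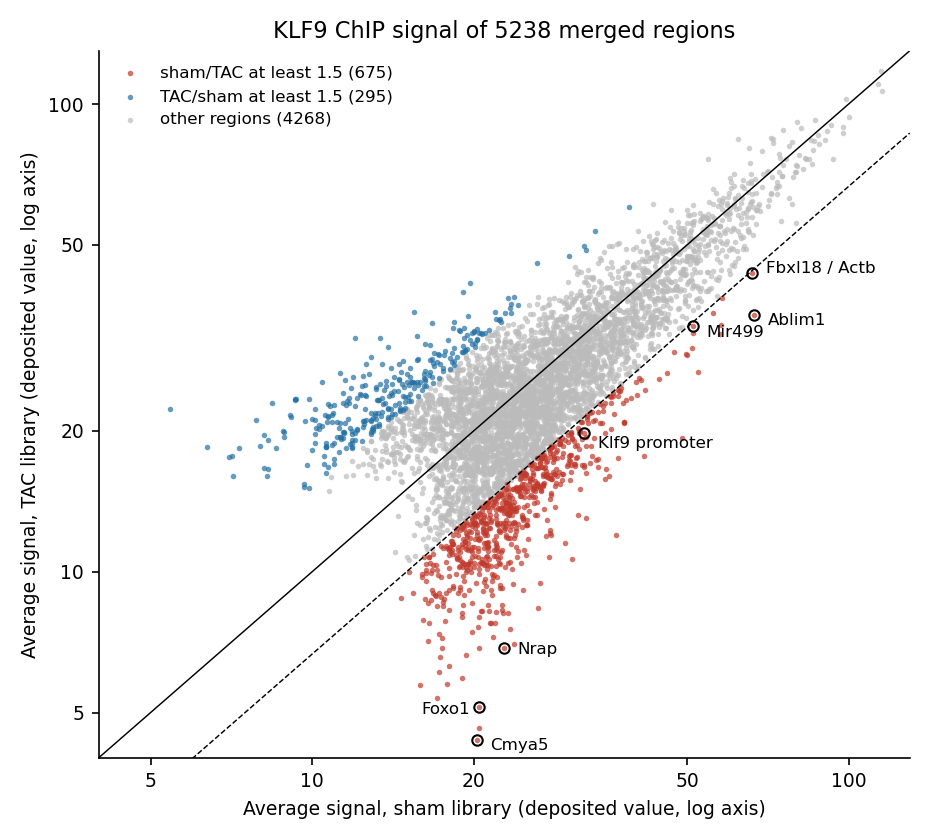
Average KLF9 ChIP signal of each of the 5238 merged regions in the TAC library (vertical) and the sham library (horizontal), both as deposited and on log axes, with 1 point per region. The solid line marks equal signal and the dashed line the ratio of 1.5 that defines the 675 members in red. Most members lie low on the TAC axis, with Cmya5 and Foxo1 among the lowest. The region inside Ablim1 and the Fbxl18/Actb promoter are among the few strong ones.

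The share of members was highest among regions of weak signal, a description built from the same values that chose them. In the weakest decile by mean signal, 240 of 524 regions, 45.8%, were members, and in the strongest decile 8 of 524, or 1.53%. Regions past the same ratio in the other direction, 295 in all, followed the same slope, with 17.0% of the weakest decile and 0.382% of the strongest. Weak regions thus passed a ratio of 1.5 more often whichever library was higher. Of the members, 518 also had a ratio of at least 1.5 in the peak value, and 501 kept it after each library was divided by its median over all regions, where 397 regions were past the ratio in the other direction. At the threshold itself, the members with the smallest ratios were the promoter of Fkbp3 and Fancm (14.3 after TAC, 21.5 in sham), that of Zfand3 (12.4 and 18.6) and that of Grasp (13.8 and 20.6). The nearest regions left out were those of Stard7 (11.2 after TAC, 16.8 in sham), Rnf4 (19.9 and 29.9) and Snrpe (17.5 and 26.3).

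**Figure D2:**
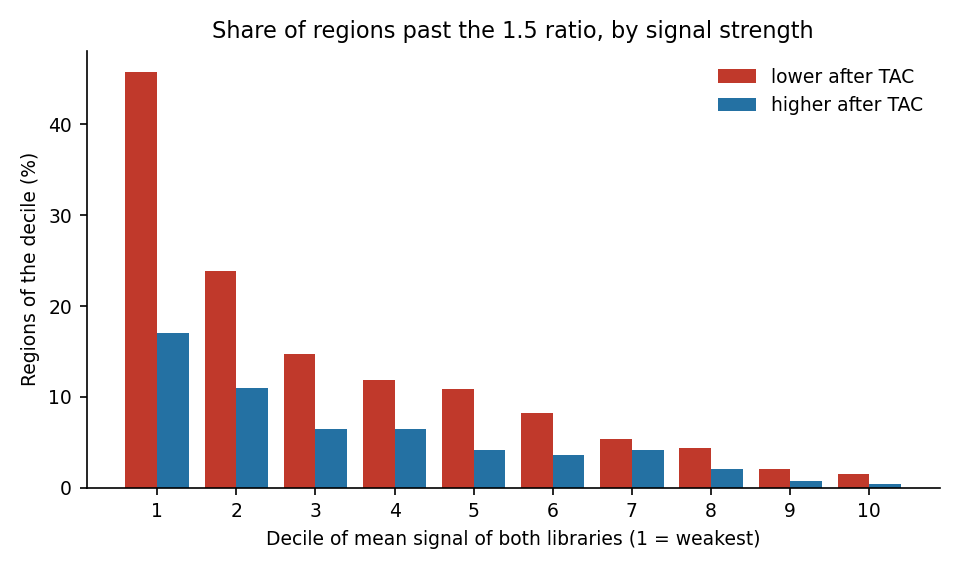
Percentage of the regions in each decile of mean signal whose TAC signal was lower (red) or higher (blue) than sham by a ratio of at least 1.5. Both shares fall from the weakest decile, 45.8% and 17.0%, to the strongest, 1.53% and 0.382%.

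By position the members resembled the rest of the regions. The authors' annotation gave 568 of them, 84.1%, at least 1 promoter, against 86.3% of all regions, and 505, 74.8%, a CpG island, against 80.7%. In 498 members, 73.8%, a gene start lay within 1 kb, against 78.5% of all regions. Members were shorter, with a median of 313 bases against 372. Regions without a CpG island were members somewhat more often: 17.0% of 511 promoters without an island and 16.6% of 499 regions with neither, against 12.0% of 4009 promoters with one. The order was the same among the strongest 3 deciles, where 6.61% of 121 island-free promoters and 2.13% of 1268 promoters with an island were members. Regions past the ratio in the other direction had the same traits. They made up 9.39% of promoters without an island and 4.54% of promoters with one. Their median length was 269 bases, and 66.8% of them had a CpG island. Shorter length and fewer islands were thus not particular to lower signal after TAC. On the X chromosome 10 of 43 regions were members, 23.3%, and on the autosomes the share ran from 9.15% on chromosome 16 to 16.7% on chromosome 11.

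The 10 largest ratios lay at genes of several kinds. A region deep inside Cmya5, which encodes the Z-disc protein myospryn, had an average signal of 4.38 after TAC and 20.2 in sham (chr13:93051648-93051881), a ratio of 0.216. A region inside Nrap, a scaffold of myofibril assembly, had 6.88 after TAC and 22.8 in sham (chr19:56378588-56378823). A region 354 bases into Foxo1, a transcription factor that insulin signalling keeps out of the nucleus, had 5.12 after TAC and 20.5 in sham (chr3:52268570-52268812). Pde4a, a cAMP phosphodiesterase, had an intragenic region at 7 after TAC and 23.8 in sham. The promoters of Plk2 (5.38 and 17.1), of the formin Fhod1 (5.93 and 19.0) and of the inositol trisphosphate receptor Itpr2 (5.75 and 17.9) were also among the 10 largest ratios. None of these regions was called present after TAC.

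The members with the most sham signal were few. A region inside Ablim1, which encodes an actin-binding protein of the Z-disc, had 35.5 after TAC and 66.6 in sham (chr19:57196545-57196977). The promoter of Fbxl18, which lies near Actb, had 43.6 after TAC and 66.1 in sham (chr5:142895013-142895466). Strong members also lay inside Amotl2 (38.4 and 58.1), Mapkapk2 (33.6 and 57.8) and Gpr157 (32.2 and 57.7), and at the promoters of Zfp36, an RNA-destabilising protein (35.7 and 55.9), and the growth factor Nrtn (26.8 and 52.4). Of 675 members 113 had a mean signal at or above the median of all regions.

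Klf9 itself carried 5 regions, of which 1 was a member. The member lay 299 bases before the start (chr19:23140688-23141167), with an average signal of 19.8 after TAC and 32.1 in sham, a ratio of 0.616. The 4 regions inside the gene had ratios of 0.795, 0.859, 0.952 and 1.13 in order along the gene, so the signal after TAC was lower than sham most clearly before the start and was 28.4 against 25.2 at the last of them. The insulin-responsive glucose transporter gene Slc2a4 was of the same kind. Its member region, 645 bases into the gene, had 9.22 after TAC and 22.6 in sham, while the stronger region over its start had 46.4 and 51.2 and was no member.

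MicroRNA genes stood near several members. The authors listed 20 miRNA genes at 16 member regions. The region over Mir499, inside Myh7b, had 33.5 after TAC and 51.3 in sham (chr2:155622594-155622973) and holds the miR-499-5p sequence printed above. A region between Myh6 and Myh7 had 17.1 after TAC and 33 in sham (chr14:54969985-54970279), 3525 bases before the start of Myh6, the adult cardiac myosin, and 5644 bases beyond the start of Mir208b. Mir133a-2, a muscle miRNA, had a region 1585 bases downstream at 19.3 after TAC and 49.0 in sham, the lowest ratio of the 3 at 0.394. The region 87 bases before Mir378, which lies in the coactivator gene Ppargc1b, had 9.43 after TAC and 23.7 in sham. The cluster of Mir23a, Mir27a and Mir24-2 had one 4386 bases upstream at 14.4 after TAC and 25.8 in sham. Mature miRNAs are not measured by the RNA tables. The gene Mir208b stood at 3.94, 3.82 and 8.48 CPM (CPM is the count scaled to a common library size within an age) in Klf9KI hearts, against 21.2, 13.6 and 25.2 CPM in Wt-Cre hearts at 8 weeks (log2 fold change −1.89, SE 0.37, adjusted p = 0.00922, edgeR), while its host Myh7 was higher. It was not called at 4 weeks (−0.71, adjusted p = 0.168) or 1 week (−0.17, adjusted p = 0.879). The call was lost without Klf9KI replicate 1, Wt-Cre replicate 1 or Wt-Cre replicate 3 (adjusted p = 0.0507 to 0.0529), and reads of a precursor and its host cannot be told apart. The Mir499 host gene Myh7b did not pass the test at any age, with 134, 102 and 166 CPM in Klf9KI hearts and 185, 127 and 105 CPM in Wt-Cre hearts at 8 weeks.

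Distances to genes are the authors', from the gene start. The authors assigned 1124 gene symbols to the members, of which 1036 matched a gene and 1018 stood in an RNA table. A region can have several genes, and 435 of the 1036 also had another region. Hearts had 17225388 to 32855383 counts at 1 week of age, 12086856 to 14890828 counts at 4 weeks of age and 12543825 to 19912542 counts at 8 weeks of age. Klf9, used to check the genotype labels, was called higher in Klf9KI hearts at 1 and 8 weeks and not at 4 weeks. At 1 week it stood at 193, 222 and 183 CPM in Klf9KI hearts, against 23.2, 21.9 and 17.2 CPM in Wt-Cre hearts (log2 fold change 3.26, SE 0.13, adjusted p = 3.55e-09, edgeR). At 4 weeks the hearts lay closer, at 143, 179 and 167 CPM for Klf9KI, against 113, 142 and 123 CPM for Wt-Cre (0.37, SE 0.14, adjusted p = 0.111, not called). At 8 weeks it stood at 108, 122 and 111 CPM in Klf9KI hearts, against 43.8, 65.6 and 40.6 CPM in Wt-Cre hearts (1.19, SE 0.21, adjusted p = 0.00594), a call lost without Wt-Cre replicate 1 (1.10, adjusted p = 0.0548). Inserted and endogenous transcripts are counted together.

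Among the genes of members, more were lower than higher in Klf9KI hearts at 4 and 8 weeks. At 4 weeks 32 of 912 tested genes rose and 92 fell, or 13.6% called, beside 13.4% of all 14513 genes tested. The lower calls were 10.1% of the genes of members, beside 6.75% of all genes and 8.49% of genes with any KLF9 region, and the higher calls 3.51%, beside 6.65% of all genes. At 8 weeks 34 of 910 rose and 74 fell, or 11.9% called, beside 10.5% of all 14483 genes. The lower calls were 8.13%, beside 5.52% of all genes and 5.69% of genes with any region, and the higher calls 3.74%, beside 4.96%. At 1 week 7 of 926 rose and 19 fell, or 2.81%, beside 1.68% of all 15825 genes (0.651% higher and 1.03% lower). The median log2 fold change of the genes of members was −0.01, −0.06 and 0.00 at the 3 ages in order, against −0.01, 0.00 and 0.04 over all genes, and the quartiles at 8 weeks were −0.35 and 0.32 at members, against −0.35 and 0.42 over all genes. At 4 weeks the share of lower calls differed within the members' genes. It was 54 of 390, 13.8%, for genes that also had another region, and 38 of 522, 7.28%, for genes with no other region. At 8 weeks these shares were 8.97% and 7.5%. The counts moved with single hearts, and lower calls outnumbered higher ones on leaving out any heart at 4 or 8 weeks. At 4 weeks they were 9 higher and 44 lower without Klf9KI replicate 1, 15 and 52 without Klf9KI replicate 2, 18 and 47 without Klf9KI replicate 3, and 57 and 133 without Wt-Cre replicate 3. At 8 weeks they were 13 higher and 40 lower without Klf9KI replicate 1, 52 and 107 without Klf9KI replicate 2, 60 and 87 without Klf9KI replicate 3, and 8 to 11 higher and 30 to 35 lower without any 1 Wt-Cre heart. Genes with a start within 1 kb of a member were lower in 40 of 506 at 4 weeks, 7.91%, and in 40 of 505 at 8 weeks, 7.92%. Genes with a start within 1 kb of other regions only were lower in 9.01% and 5.46% at those ages.

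The split by annotation was wider. Of the genes of members without a promoter, 20 of 96 were lower at 4 weeks, 20.8%, against 38 of 367, 10.4%, of the genes of other regions without a promoter. For promoters without a CpG island the shares were 24 of 136, 17.6%, at members and 57 of 511, 11.2%, at other regions. For promoters with an island they were 51 of 695, 7.34%, and 319 of 4003, 7.97%. At 8 weeks the same classes had 13.5% lower at members and 4.63% at other regions without a promoter, 12.5% and 7.98% at promoters without an island, and 6.35% and 5.06% at promoters with one. Genes are not independent samples, and these shares are given without a test. The genes of members here include those that also had another region, 435 of 1036 in all. The genes on the other side had no member. The sides can thus differ in regions per gene as well as in membership, and the part of this was not tested. Genes of the regions higher after TAC had 18 of 351 higher and 24 lower at 4 weeks, 5.13% and 6.84%, beside 6.65% and 6.75% of all genes. At 8 weeks they had 23 of 355 higher and 6 lower, 6.48% and 1.69%, beside 4.96% and 5.52%.

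**Figure D3:**
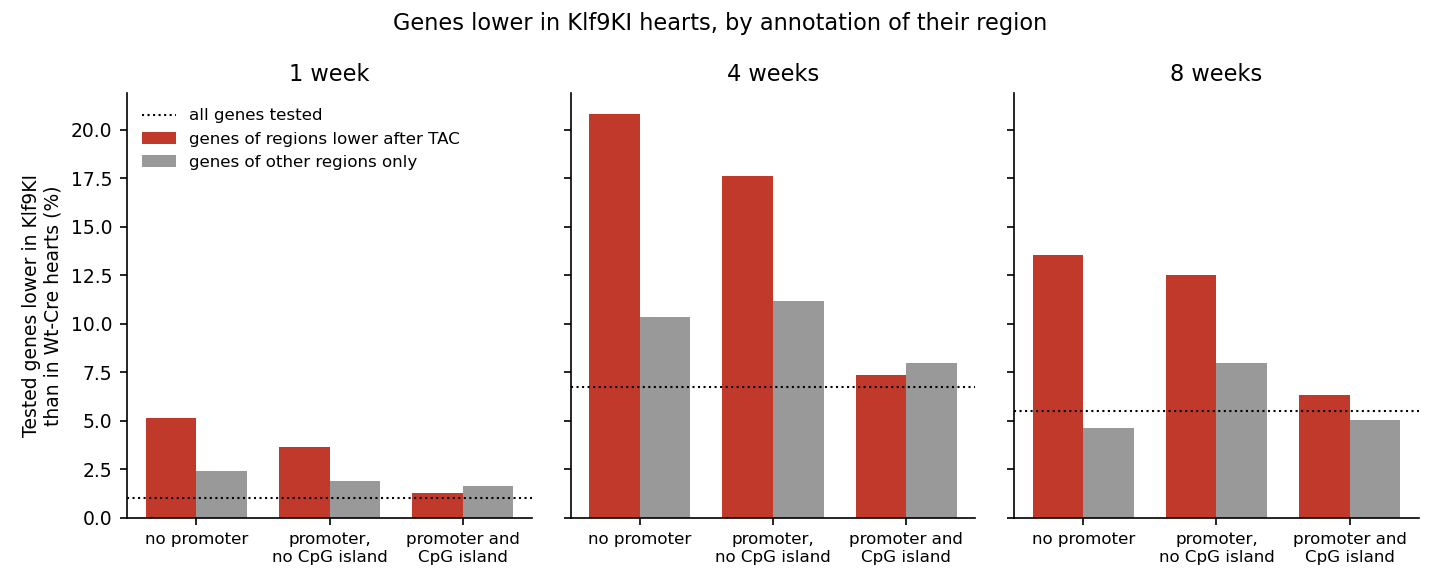
Percentage of tested genes that were lower in Klf9KI than in Wt-Cre hearts (adjusted p under 0.05, edgeR) at each age, for genes of regions lower after TAC (red) and genes of other regions only (grey), by the annotation of the region. Genes in red can also have other regions. The dotted line is the share of all genes tested. At 4 weeks the red bars reach 20.8%, 17.6% and 7.34%, beside grey bars of 10.4%, 11.2% and 7.97%.

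The RNA was that of whole hearts, in which fewer cells of a type and less RNA per cell cannot be told apart. The summed level of 12 cardiomyocyte markers ran from 47033 to 51218 CPM in Klf9KI hearts and from 63061 to 77077 CPM in Wt-Cre hearts at 8 weeks, and from 59706 to 68164 and 77033 to 85690 CPM at 4 weeks. Of these 12, 2 were lower at 8 weeks and 4 at 4 weeks, and 0 were higher. Myh6, which is 1 of the 12, weighs heavily in the sums, with means of 19286 CPM in Klf9KI and 30975 CPM in Wt-Cre hearts at 4 weeks. Markers of fibroblasts had a sum of 2171 to 3285 CPM in Klf9KI hearts and 1414 to 1776 CPM in Wt-Cre hearts at 8 weeks, with 4 of 10 higher. Those of macrophages had 610 to 764 CPM in Klf9KI hearts and 374 to 486 CPM in Wt-Cre hearts at that age, with 5 of 11 higher. At 4 weeks fibroblast markers had 2998 to 3411 CPM in Klf9KI hearts and 2428 to 2901 CPM in Wt-Cre hearts, with 2 of 10 higher, and macrophage markers 474 to 755 and 369 to 440 CPM, with 4 of 11 higher. Atrial markers had 1411 to 2475 CPM in Klf9KI hearts and 113 to 149 CPM in Wt-Cre hearts at 4 weeks, and 1485 to 2323 and 131 to 312 CPM at 8 weeks, while at 1 week the sums were 123 to 1228 CPM in Klf9KI hearts and 789 to 2909 CPM in Wt-Cre hearts. Of the atrial markers tested, 1 of 6 was higher and 2 lower at 4 weeks, and 1 of 5 higher and 2 lower at 8 weeks. The calls thus went both ways, and the higher atrial sums do not stand for the list as a whole. The weight of single markers in the atrial sums was not tested. No marker of these 4 lists that the tables hold was at 0, and their part in the differences below was not tested. At 1 week Klf9KI hearts 1 and 2 carried 717 and 594 CPM of Xist, which coats the inactive X, and the other 4 hearts had under 2 CPM. Leaving those hearts out leaves 1 Klf9KI heart, assumed to vary like the Wt-Cre hearts. In that fit 1 gene of members was higher, Klf9 (log2 fold change 3.15), and 1 lower, Adssl1 (−0.89, adjusted p = 0.0477, edgeR). The Klf9 call also stood with Xist as a covariate, and the Adssl1 call did not (adjusted p = 0.0664). For the other genes called at 1 week, 1 Klf9KI heart alone separates genotype from sex, which is too few to tell them apart.

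A small group of genes of members was lower in Klf9KI hearts at all 3 ages: Hhatl, Hdac11, Mdga1, Dhrs7c, Trim7, Ybx2, Adssl1 and St6galnac6. Hhatl, a relative of the hedgehog acyltransferase made in striated muscle, has a member 267 bases into the gene with 13.0 after TAC and 24.8 in sham. It stood at 31.0, 28.3 and 28.3 CPM in Klf9KI hearts, against 127, 107 and 116 CPM in Wt-Cre hearts at 4 weeks (log2 fold change −2.00, SE 0.12, adjusted p = 4.16e-06). At 8 weeks it stood at 20.5, 31.4 and 18 CPM in Klf9KI hearts, against 127, 129 and 78 CPM in Wt-Cre hearts (−2.26, SE 0.27, adjusted p = 0.000696). The groups did not overlap at any age, and at 1 week the difference was −0.94 (adjusted p = 0.0138). Hdac11, whose member lies 111 bases before the start (6.86 after TAC, 17.4 in sham), stood at 4.41, 2.39 and 4.27 CPM in Klf9KI hearts, against 15.5, 11.3 and 17.8 CPM in Wt-Cre hearts at 8 weeks (−2.00, SE 0.33, adjusted p = 0.00397). It was −1.55 at 4 weeks (adjusted p = 0.00266) and −1.0 at 1 week (adjusted p = 0.0269). Mdga1, a membrane-anchored immunoglobulin protein with a member inside the gene (19.8 after TAC, 35.1 in sham), stood at 3.82, 3.65 and 4.01 CPM in Klf9KI hearts, against 24.4, 23.7 and 11.3 CPM in Wt-Cre hearts at 4 weeks (−2.37, SE 0.29, adjusted p = 0.000409), and was −2.24 at 8 weeks. Dhrs7c, a dehydrogenase of the sarcoplasmic reticulum with a member 1525 bases into the gene (19.1 after TAC, 29.6 in sham), was lower by log2 fold changes of −0.54, −0.84 and −1.85 at the ages in order, and the effect at 8 weeks differed from that at 4 weeks (difference −1.04, SE 0.22, adjusted p = 0.0352). That difference was lost in 12 of 23 alternatives, 11 of them without 1 heart (adjusted p = 0.0504 to 0.137). At 1 week, with the Xist-carrying hearts left out and 1 Klf9KI heart remaining, the log2 fold changes were −0.71 for Hhatl, −1.11 for Hdac11, −0.97 for Mdga1 and −0.55 for Dhrs7c, none of them called. The Hhatl call was lost at that age without Klf9KI replicate 1 or 2 (adjusted p = 0.055 to 0.114), the Hdac11 call without any of 4 single hearts, Klf9KI 1 and 3 and Wt-Cre 2 and 3 (adjusted p = 0.0687 to 0.117). The Dhrs7c call was lost without any single heart but Klf9KI replicate 2 (adjusted p = 0.0858 to 0.15). The calls of all 4 genes at 4 and 8 weeks stood in each of 13 alternatives.

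Of the other 4, Trim7 is an E3 ligase that binds glycogenin. It has its member 8917 bases upstream and stood at 3.52, 2.67 and 5.71 CPM in Klf9KI hearts, against 39.7, 69.7 and 75.7 CPM in Wt-Cre hearts at 4 weeks (−3.96, SE 0.33, adjusted p = 8.22e-05). Ybx2, a nucleic-acid-binding protein best known from germ cells, shares the intragenic region of Slc2a4, 11646 bases beyond its own start, and was −2.59 at 8 weeks (adjusted p = 0.000799). Adssl1, an adenylosuccinate synthase of muscle, has its member 24453 bases downstream and was −1.03, −1.59 and −1.49 at 1, 4 and 8 weeks. St6galnac6, a sialyltransferase, was −0.43, −1.15 and −1.07. The Ybx2 call at 1 week was lost without any single heart but Wt-Cre replicate 2 (adjusted p = 0.0555 to 0.117).

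**Figure D4:**
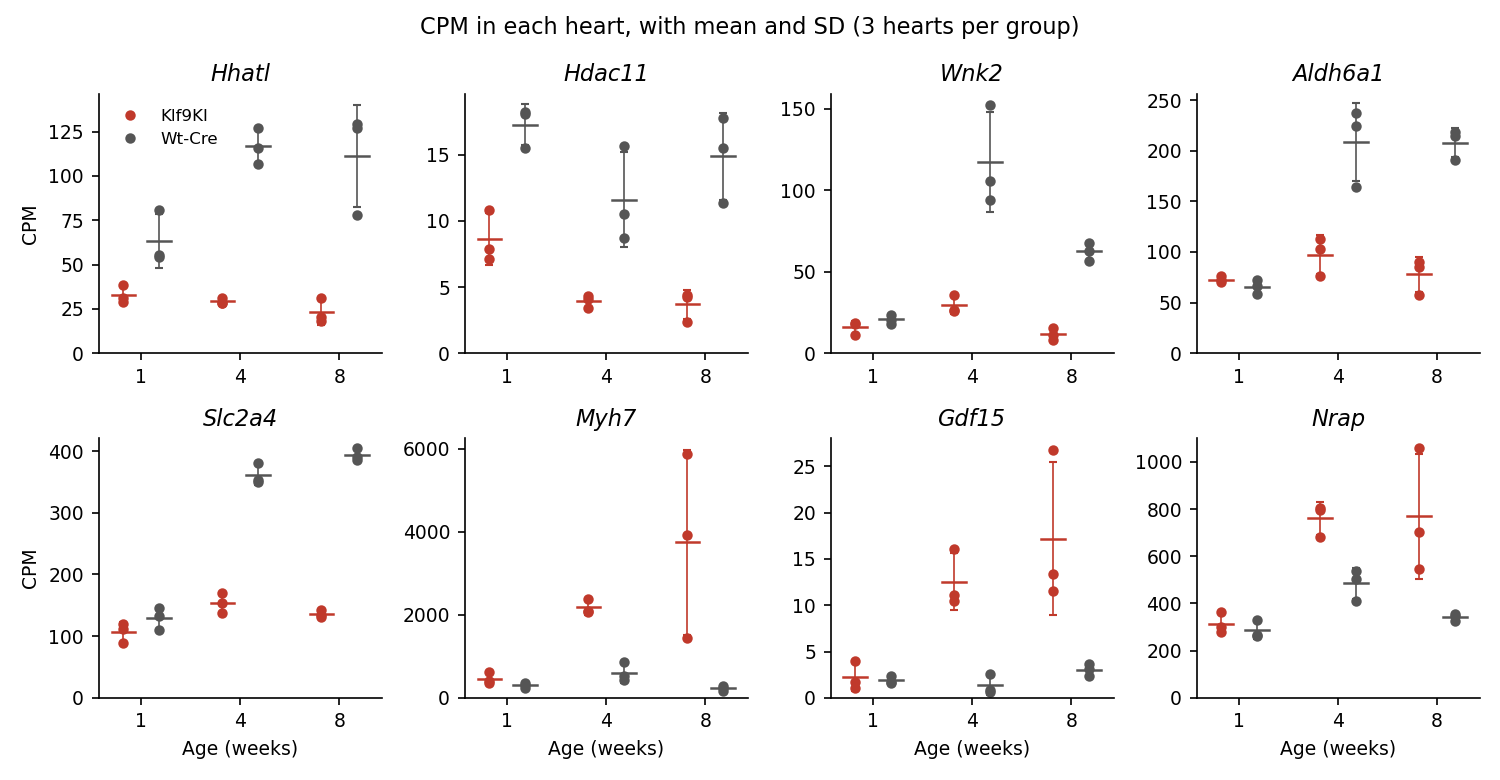
CPM of 8 genes of member regions in each heart by age, Klf9KI in red and Wt-Cre in grey, with the mean and SD of 3 hearts. Hhatl and Hdac11 are lower in Klf9KI hearts at each age without overlap, Wnk2, Aldh6a1 and Slc2a4 at 4 and 8 weeks, and Myh7, Gdf15 and Nrap are higher at 4 and 8 weeks.

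Other genes passed the test at 4 and 8 weeks and not at 1 week. Wnk2, a kinase of the family that sets ion transport, has a strong member 55 bases before its start with 29.2 after TAC and 49.8 in sham. It stood at 11.4, 8.32 and 15.2 CPM in Klf9KI hearts, against 62.8, 56.7 and 67.7 CPM in Wt-Cre hearts at 8 weeks (−2.42, SE 0.24, adjusted p = 0.000244), and was −1.99 at 4 weeks. Its effect at 8 weeks differed from that at 1 week (difference −2.07, SE 0.31, adjusted p = 0.000395). Whrn, the scaffold protein whirlin, with a region 85477 bases downstream, stood at 5.25, 6.68 and 6.90 CPM in Klf9KI hearts, against 36.1, 32.2 and 48.6 CPM in Wt-Cre hearts at 8 weeks (−2.64, SE 0.24, adjusted p = 0.000194). Foxo6, a forkhead factor with a member 4042 bases upstream, had a low level, at 0.150, 0.587 and 0.747 CPM in Klf9KI hearts and 4.28, 4.90 and 4.39 CPM in Wt-Cre hearts at 4 weeks (−3.15, SE 0.45, adjusted p = 0.00104). Its call at 8 weeks (−3.50) was lost without Wt-Cre replicate 3 (adjusted p = 0.0607). For Foxo6 the interaction test of edgeR called no difference from the effect at 1 week. The difference was −1.53 at 4 weeks (SE 0.66, adjusted p = 0.409) and −1.91 at 8 weeks (SE 0.69, adjusted p = 0.0877).

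Genes of fuel use were at members more often lower than higher. Of the 35 genes listed for fatty acid uptake and beta-oxidation, 6 had a member, and 5 of these were lower at 4 weeks and 4 at 8 weeks, none higher. Over the list's tested genes 21 of 34 were lower at 4 weeks and 19 of 34 at 8 weeks, so the genes at members followed their list. Acadm, the medium-chain acyl-CoA dehydrogenase, stood at 529, 484 and 398 CPM in Klf9KI hearts, against 980.2, 1196 and 978 CPM in Wt-Cre hearts at 8 weeks (−1.16, SE 0.20, adjusted p = 0.00555). Its assigned region lies 31455 bases downstream, and the authors gave that region 4 promoters. Etfb, a subunit of the electron transfer flavoprotein, has a member 620 bases before its start and was −1.05 at 4 weeks (adjusted p = 0.00297) and −1.46 at 8 weeks (adjusted p = 0.0155). The 8-week call of Etfb was lost without Klf9KI replicate 1 or any Wt-Cre heart (adjusted p = 0.0558 to 0.0722). Slc27a1, a fatty acid transporter, was −0.94 (adjusted p = 0.00499) at 4 weeks and −1.06 (adjusted p = 0.00836) at 8 weeks, by edgeR. Slc2a4 stood at 153, 170 and 137 CPM in Klf9KI hearts, against 380, 353 and 350 CPM in Wt-Cre hearts at 4 weeks (−1.24, SE 0.13, adjusted p = 0.000162), and was −1.53 at 8 weeks (adjusted p = 0.000539).

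The 3 genes of branched-chain amino acid and ketone breakdown at members were all lower at 8 weeks, beside 9 of 27 over the list. Aldh6a1 has a member 238 bases before its start, with 18.2 after TAC and 28.6 in sham. It stood at 85.4, 90.5 and 58.0 CPM in Klf9KI hearts, against 191, 218 and 214 CPM in Wt-Cre hearts (−1.42, SE 0.21, adjusted p = 0.00215), and was −1.10 at 4 weeks (adjusted p = 0.00263). Ppm1k, the phosphatase that activates the branched-chain ketoacid dehydrogenase, stood at 42.9, 42.7 and 36.2 CPM in Klf9KI hearts, against 83.3, 117 and 102 CPM in Wt-Cre hearts at 8 weeks (−1.31, SE 0.19, adjusted p = 0.00197). Its difference at 4 weeks was −0.05, and the change between these ages passed (difference −1.29, SE 0.25, adjusted p = 0.0203), though not on leaving out any of 4 single hearts, Klf9KI 1, Klf9KI 2 and Wt-Cre 2 of 4 weeks and Wt-Cre 2 of 8 weeks (adjusted p = 0.052 to 0.0921). Acat1, the mitochondrial thiolase of ketone use, was −0.75 (adjusted p = 0.0438), a call lost without any single heart but Klf9KI replicate 2 (adjusted p = 0.0577 to 0.225).

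Among nuclear genes of the respiratory chain, 12 of 80 had a member. Of these 12, 1 was higher at 1 week, 2 were lower at 4 weeks and 5 at 8 weeks, beside 4 of 80 higher, 5 of 80 lower and 41 of 80 lower over the list at those ages. Sdhb, with a member over its start (12.4 after TAC, 20.1 in sham), stood at 639, 387 and 618 CPM in Klf9KI hearts, against 1188, 1110.1 and 933 CPM in Wt-Cre hearts at 8 weeks (−0.97, SE 0.24, adjusted p = 0.0248). The difference no longer passed without Klf9KI replicate 1 or any Wt-Cre heart (adjusted p = 0.0555 to 0.131). Mpc2, a subunit of the mitochondrial pyruvate carrier, has a member 165 bases into the gene (8.22 after TAC, 21.3 in sham) and stood at 194, 127 and 186 CPM in Klf9KI hearts, against 447, 423 and 383 CPM in Wt-Cre hearts at 8 weeks (−1.31, SE 0.21, adjusted p = 0.00365). Its effect differed between 8 and 4 weeks (difference −1.06, SE 0.23, adjusted p = 0.0364), a call lost on leaving out any of 11 single hearts (adjusted p = 0.054 to 0.129). Of the 14 genes of the cytosolic ribosome and translation at members, 13 of which were tested at 8 weeks, 0 were called at any age by edgeR. Over that list 0 of 86 were called at 1 week. At 4 weeks 2 of 86 were higher and 1 lower, and at 8 weeks 2 of 85 were higher and 1 lower. The genes at members thus followed their list.

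Some fetal and cardiac stress genes at members were higher in Klf9KI hearts. Of the 25 fetal and cardiac stress genes, 6 had any KLF9 region and all 6 had a member: Myh7, Rcan1, Actn1, Flnc, Myl4 and Myh7b. Over all genes with a region, 1036 of 6365 had a member. Some of the 6 lay far from theirs, which stood 9057 bases before the Rcan1 start and 11571 bases into Myh7b. At 4 weeks 2 of the 6, Myh7 and Rcan1, were higher and at 8 weeks 3, Actn1 in addition, beside 10 of 22 and 15 of 23 over the list. Flnc, Myl4 and Myh7b were called at neither age. Myh7, the slow myosin, stood at 3918, 5867 and 1435 CPM in Klf9KI hearts, against 234, 171 and 287 CPM in Wt-Cre hearts at 8 weeks (4.02, SE 0.46, adjusted p = 0.000548), and was 1.86 at 4 weeks (adjusted p = 0.00089). Its region, shared with Myh6 and Mir208b, lies 24417 bases beyond the Myh7 start. Myh6 stood at 18796, 21836 and 17227 CPM in Klf9KI hearts, against 33044, 32627 and 27255 CPM in Wt-Cre hearts at 4 weeks (−0.68, SE 0.14, adjusted p = 0.00733), a call lost without Klf9KI replicate 1 or 3 (adjusted p = 0.0548 to 0.0626). At 8 weeks it was −0.92 (adjusted p = 0.0581). Reads of these near-identical myosins can be split between them. Rcan1, a regulator of calcineurin that calcineurin itself induces, stood at 224, 193 and 228 CPM in Klf9KI hearts, against 97.8, 91.9 and 57.9 CPM in Wt-Cre hearts at 4 weeks (1.38, SE 0.19, adjusted p = 0.000822), and its call at 8 weeks was lost without any single Wt-Cre heart (adjusted p = 0.0553 to 0.0747). Actn1, the non-muscle alpha-actinin, has a member 104 bases before its start and was 1.41 at 8 weeks (SE 0.25, adjusted p = 0.00574).

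Gdf15, a stress-induced hormone of the TGF-beta family, has a member 775 bases into the gene with 12.9 after TAC and 24.7 in sham. It stood at 11.1, 10.4 and 16.1 CPM in Klf9KI hearts, against 0.856, 2.58 and 0.662 CPM in Wt-Cre hearts at 4 weeks (3.20, SE 0.42, adjusted p = 0.000803), and was 2.49 at 8 weeks (adjusted p = 0.00264). Its effect at 4 weeks differed from that at 1 week (difference 2.97, SE 0.69, adjusted p = 0.0343), a call lost on leaving out any of 9 single hearts (adjusted p = 0.053 to 0.119). Enpp1, a pyrophosphate-forming ectoenzyme with a member 128 bases before its start, stood at 16.4, 32.5 and 21.5 CPM in Klf9KI hearts, against 5.2, 6.03 and 9.05 CPM in Wt-Cre hearts at 8 weeks (1.79, SE 0.32, adjusted p = 0.00578). No gene of the chosen lists for extracellular matrix, interferon and inflammation, or cell cycle was at a member, although 14 of 56, 10 of 40 and 21 of 42 had a KLF9 region. Over all 6365 genes with a KLF9 region, 1036 had a member. The lists do not hold every gene of their kind. The collagen gene Col4a3, outside the matrix list, was assigned a member 138216 bases downstream.

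The genes with the largest falls in ChIP signal did not share one RNA pattern. Cmya5 stood at 255, 299 and 221 CPM in Klf9KI hearts, against 638, 698 and 432 CPM in Wt-Cre hearts at 4 weeks (−1.19, SE 0.19, adjusted p = 0.00208), and was −0.50 at 8 weeks (adjusted p = 0.213). Nrap was higher at 8 weeks, with 701, 1060.2 and 544 CPM in Klf9KI hearts and 354, 349 and 324 CPM in Wt-Cre hearts (1.17, SE 0.25, adjusted p = 0.0146), a call lost without any single Wt-Cre heart (adjusted p = 0.0744 to 0.0819). Plk2 was 0.77 at 4 weeks (SE 0.17, adjusted p = 0.0106), lost without Klf9KI replicate 1 (0.68, adjusted p = 0.0732). Foxo1 was 0.38 at 8 weeks (adjusted p = 0.288). Of the strong members, Ablim1 was lower at 4 weeks, with 295, 322 and 315 CPM in Klf9KI hearts and 521, 571 and 655 CPM in Wt-Cre hearts (−0.91, SE 0.13, adjusted p = 0.00136), and −0.08 at 8 weeks (adjusted p = 0.821).

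Across ages 193 of the 939 genes of members tested at least once were called at 1 age or more, 49 at 2 ages and 8 at all 3, or 20.6%, 5.22% and 0.852%. Over all 16389 genes tested at least once the shares were 17.3%, 4.6% and 0.409%. Of the 54 called at both 4 and 8 weeks, which is 43.5% of those called at 4 weeks and 50% of those called at 8 weeks, 42 were lower at both, 11 were higher at both, and Nr4a1, an early-response nuclear receptor, was −1.20 at 4 weeks and 0.89 at 8 weeks. Over all genes 721 were called at both of those ages, 4 of them in opposite directions. Lower at both were 77.8% of the 54 at members and 57% of the 721, a difference that was not tested. The effect itself differed between 8 weeks and 1 week in 115 of 949 genes of members, beside 9.45% of all 16660 genes, between 4 weeks and 1 week in 15, beside 1.15%, and between 8 and 4 weeks in 6, beside 0.48%.

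**Figure D5:**
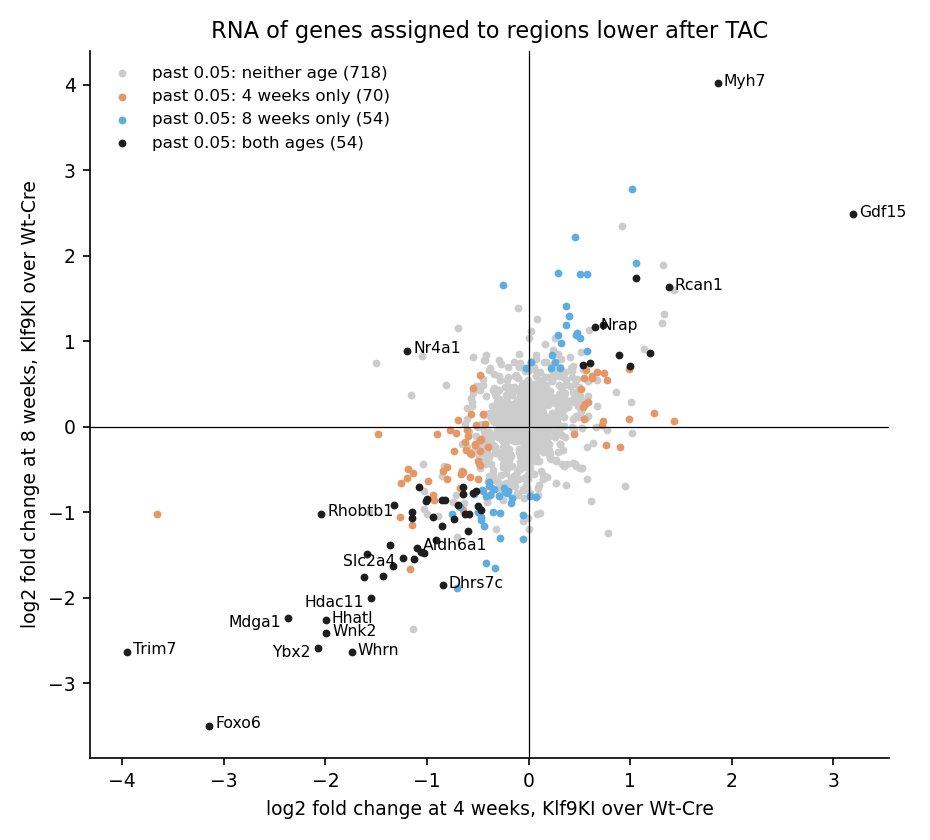
Log2 fold change of Klf9KI over Wt-Cre hearts at 4 weeks (horizontal) and 8 weeks (vertical) for each gene of a member region tested at both ages, coloured by the ages at which it passed an adjusted p of 0.05. Of the 54 genes past it at both ages, 42 lie at the lower left, with Foxo6 and Trim7 farthest out, 11 at the upper right with Myh7 and Gdf15, and Nr4a1 at the upper left.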

How the data were processed

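The authors deposited 1 table of merged KLF9 regions and 1 gene table per age. Per the file headers the region table holds an average and a peak signal and a presence call per library, the authors' log2 ratio, and the authors' genes, distances, promoters and CpG islands. The gene tables hold raw counts per heart, per the file headers. Per the submitters' processing notes the tools include BWA, HISAT2 2.0.5, MACS2 2.1.0, fastp, featureCounts 1.5.0-p3, StringTie 1.3.3b and DESeq2 1.20.0, with mm10 and no roles given. The labels' protocols do not say which libraries were strand-specific, so overlapping genes are uncertain.

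The ratio was computed from the deposited signal. At each age edgeR 4.0.16 tested the counts by quasi-likelihood (R 4.3.3; filterByExpr, TMM, robust prior), adjusted by Benjamini-Hochberg over all genes at 0.05. Differences between ages came from 1 fit of 18 libraries over the 21463 shared genes, in which age and batch cannot be told apart. CPM used effective library sizes. Errors are SD over 3 hearts or SE. The labels tie hearts to no litter or day, so p-values measure the spread between these samples. The test was checked on simulated data. Members, gene lists and named genes were chosen with earlier results of these data known. The rule for names took the largest ratios and sham signals, the regions around the threshold, Klf9, 8 rises and 8 falls per age with 5 CPM and no overlap, genes called at several ages and up to 3 genes per list, not all of which are described, and some items are not reported here. Slc27a1, St6galnac6, Nr4a1 and Mir208b were named after their values were seen. Motifs were searched on both strands of RefSeq promoter windows. Alternatives included DESeq2 1.42.0, other filters, leaving out each heart, a replicate block and a non-robust prior, the last chosen after seeing the data.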

Additional observations from a re-analysis of the deposited data

Results flagged for a closer look

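The effect of Klf9KI on RNA differed between ages, by the interaction test of edgeR over all 16660 genes, for genes of member regions that include the following. All values are differences of log2 fold changes, and those against 1 week rest on an age at which Klf9KI hearts 1 and 2 carried Xist and the Wt-Cre hearts did not, whose part was not tested.

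Between 8 weeks and 1 week the effect moved down for genes of mitochondria and fuel use: −1.59 for Aldh6a1, −1.07 for Acat1, −1.93 for Ppm1k, −0.88 for Acadm, −1.59 for Etfb, −1.29 for Slc2a4, −0.75 for Pfkm, −1.76 for Mpc2, −0.78 for Dld, −1.19 for Sdhb, −0.63 for Sdhc, −1.41 for Ndufs7, −1.38 for Ndufv3, −1.40 for Mrps36, −0.83 for Mrps5 and −1.09 for Clpp. It also moved down for Dcxr (−2.31), Hhatl (−1.35), Mdga1 (−1.14), Dhrs7c (−1.34), Ybx2 (−1.79), Wnk2 (−2.07), Whrn (−2.65), Kcnk3 (−0.95), Abhd12 (−0.93), Emc7 (−0.76), Fkbp3 (−0.66) and Tmem205 (−1.22). Of 23 alternatives the Mdga1 difference was lost in 18 (adjusted p = 0.0504 to 0.128), that of Sdhc in 13 (0.0503 to 0.139), those of Dld (0.0516 to 0.104) and Fkbp3 (0.0533 to 0.092) in 7, that of Tmem205 in 6 (0.0618 to 0.0761), those of Acadm, Mrps5 and Pfkm in 4 (0.0503 to 0.0754) and that of Emc7 in 2 (0.0509 to 0.0593), each of these on leaving out 1 heart, apart from losses without a filter (Mdga1 and Sdhc), with DESeq2's size factors (Mdga1) and with a replicate block (Sdhc). For Klf9 itself the difference was −2.11.

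It moved up between these ages for Myh7 (3.39), Myom3 (2.85), Egr3 (3.11), Enpp1 (2.58), Gdf15 (2.24), Rcan1 (1.66), Actn1 (1.65), Cd248 (1.60) and Nrap (1.00). The Gdf15 difference was lost in 8 of 23 alternatives (adjusted p = 0.0542 to 0.0911) and the Nrap difference in 5 (0.0502 to 0.0638), each on leaving out 1 heart. Cd248 is also a gene of stromal cells. Of the fibroblast markers 4 of 10 were higher at 8 weeks and 0 lower, and a link between them and Cd248 was not tested.

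Between 4 weeks and 1 week the difference was −1.25 for Aldh6a1, −0.96 for Slc2a4, −1.61 for Wnk2, −1.73 for Whrn, −2.89 for Klf9, 2.97 for Gdf15, 2.02 for Myom3 and 1.07 for Parp10. On leaving out single hearts the difference was lost for Gdf15 in 9 of 23 alternatives (adjusted p = 0.053 to 0.119), Myom3 in 7 (0.052 to 0.118), Parp10 in 5 (0.052 to 0.0753), Slc2a4 in 4 (0.0534 to 0.0611) and Aldh6a1 in 1 (0.0542). Between 8 and 4 weeks it was −1.04 for Dhrs7c, −1.06 for Mpc2 and −1.29 for Ppm1k, lost in 12, 11 and 4 of 23 alternatives in that order (adjusted p = 0.0504 to 0.137), 1 of them for Dhrs7c by a replicate block and the rest on leaving out 1 heart.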

How the results depend on the processing

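The 675 regions became 125 at a ratio of 2 and 113 among regions above the median of mean signal. At 1 week 266 genes were called, against 522 with DESeq2's Wald test, 672 without a filter, 166 with a non-robust prior, 47 with all 18 libraries in 1 fit, 21 without the libraries that carry Xist, which leaves 1 Klf9KI heart, and 10 with Xist as covariate. Genes of members higher at 1 week, 7, became 18, 20, 4, 2, 1 and 1 under those settings, 3 with a 1.5-fold limit, 2 at a ratio of 2 and 3 above the median signal. The 19 lower became 34 without a filter, 11 with a non-robust prior, 1 with all 18 libraries, 1 without the Xist libraries and 0 with Xist as covariate, 7 within 1000 bases of a start, 6 at a ratio of 2 and 3 above the median signal. At 4 weeks the 32 higher and 92 lower became 17 and 40 within 1000 bases, 6 and 19 at a ratio of 2, and 9 and 19 above the median signal. At 8 weeks the 34 and 74 became 12 and 40, 2 and 12, and 8 and 17, and 76 and 143 with all 18 libraries, where 3278 genes were called against 1518. DESeq2 called 399 differences between 4 weeks and 1 week (29 at members) against 192 (15), and 419 between 8 and 4 weeks (30) against 80 (6). The causes were not tested, beyond the smaller gene sets of the narrower rules.

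Leaving out 1 heart gave 78 to 238 calls at 1 week (1 to 9 higher and 7 to 9 lower at members), 873 to 2654 at 4 weeks (9 to 57 and 44 to 133) and 518 to 2102 at 8 weeks (8 to 60 and 30 to 107). Differences ran from 106 to 298 (9 to 22 at members) between 4 weeks and 1 week, 942 to 2414 (67 to 171) between 8 weeks and 1 week, and 18 to 491 (0 to 37) between 8 and 4 weeks. Deviations of same-numbered hearts from their group means had r from −0.118 to 0.232. With 3 hearts per group, these values cannot settle whether the numbers pair the hearts. With a replicate block the members had 2 higher and 13 lower at 1 week, 52 and 118 at 4 weeks and 44 and 99 at 8 weeks.

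Of 158 called values of named genes, 74 kept their call in each alternative run. Of their 2590 alternatives 437 lost the call and 0 reversed. Values not called, and genes named after their values were seen, apart from Mir208b, were not recomputed.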
